A study of Mus musculus with 6 samples.

Results

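The 10 receptor genes described here mark or serve macrophages settled in tissues, and were followed through collagen-induced arthritis in the mouse: Mrc1, Timd4, Cx3cr1, Adgre1, Cd163, Lyve1, Vsig4, Mertk, Marco and Folr2. They were taken by gene symbol, with every probe of each gene, which gave 10 genes and 13 probes of 16593 genes and 25697 probes on the array. The RNA was that of ankle synovial tissue from males of DBA/1, an inbred strain that develops arthritis when immunized with type II collagen. All groups received 100 µg of bovine collagen in complete Freund's adjuvant at an age of 6 to 8 weeks and a booster in a footpad 2 weeks later, and the boosted foot was not used. By the labels the groups differed in the time of sampling, at week 6 (induction), week 9 (peak) or week 15 (resolution) after immunization. Each had 2 Illumina bead arrays. Age at sampling rose with the week, so age and stage cannot be told apart. Each array held RNA of pooled tissue, and the labels do not say whether the arrays of a week came from different pools, so the spread between them may be technical. Mice without immunization were not analysed here.

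Macrophages of the synovium include long-lived resident cells of the lining and of the tissue below it, and cells that arrive as blood monocytes during inflammation. Resident cells take up dying cells, debris and glycoproteins through dedicated surface receptors, and such uptake is known to restrain inflammation. In mouse joints, cells carrying Cx3cr1 form a barrier-like lining, and cells carrying Timd4, Lyve1, Folr2 or Mertk are known as resident populations.

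The arrays of a week agreed less at week 15 (Pearson's r across genes 0.975) than at week 6 or week 9 (0.991 for both pairs). Of the marker lists for other cells, B and plasma cell markers were detected on all 6 arrays for 4 of 5 genes with a probe and T and NK cell markers for 5 of 6. Fibroblast markers, which stand for the labelled tissue, were detected throughout for 4 of 6. Mean log2 signals at week 6 were 10.68 for the B and plasma cell markers and 10.39 for the T and NK cell markers. The fibroblast markers had 7.53. The part of lymphoid cells or tissue in the receptor values was not tested. The first week 15 array had a mean of 9.35 over 6 skeletal muscle markers (log2 scale), against 5.14 to 5.48 on the other 5, and the second week 15 array was the dimmest, with a median intensity of 99.1 against 123 to 130.

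Of the 10 genes, 8 had a probe that lay above background on all 6 arrays and were tested, namely Mrc1, Timd4, Cx3cr1, Adgre1, Lyve1, Mertk, Marco and Folr2. A probe counted as above background when under 5% of the 1111 background rows of that array were as bright, which set the limit at an intensity of 98.5 on the second week 15 array and of 125 to 129 on the others. Cd163, the scavenger receptor for hemoglobin bound to haptoglobin, was not above background on any array with either of its 2 probes, whose intensities ran from 79.8 to 124. Vsig4, a complement receptor of resident macrophages, was likewise not above background on any array, with an intensity between 87.8 and 125. Both genes are therefore given no change between weeks. Their probes give only an upper limit on the signal, and they do not show that the cells lacked the RNA.

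**Figure D1:**
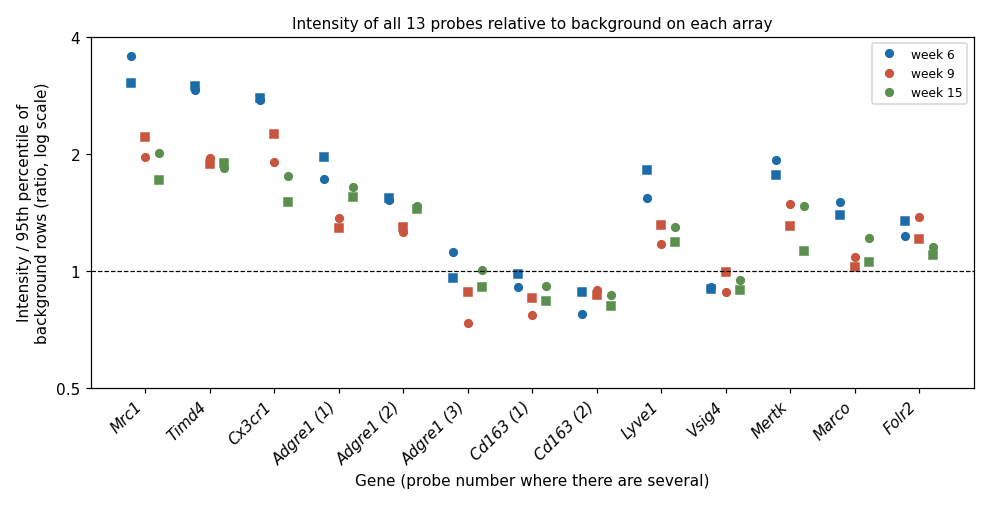
Intensity of each of the 13 probes divided by the 95th percentile of the background rows of the same array, on a log axis; colours give the week, circles the first and squares the second array of a week, and the dashed line the detection limit. Both Cd163 probes and the Vsig4 probe lie at or below the line on all 6 arrays, and the third Adgre1 probe lies above it on 2 arrays.

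Mean signals of 7 of the 8 tested genes were lower at week 9 than at week 6, with Folr2 the exception, and the arrays of the 2 weeks did not overlap for those 7. None of the 8 passed the threshold of 0.05 on the limma adjusted p, where 0.354% of 10167 features passed. Of the 8, 7 had an unadjusted p under 0.05 and a lower mean, against 8.59% of all features, and the share of all features with non-overlapping, lower week 9 values was 25.6%. The median log2 change of the 8 was -0.83, against 0.04 over all features. In a fit of the 4 arrays of these weeks, which equals leaving out either week 15 array, Timd4 and Marco passed (limma adjusted p = 0.0445 and 0.0454), as did 171 of all features in place of 36. With the authors' values the log2 changes of the 7 genes were smaller, from -0.27 for Mertk to -0.57 for Mrc1, and none passed. In bulk tissue, fewer macrophages, less RNA per macrophage and a changed amount of other cells or tissue cannot be told apart.

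Among the receptors for sugars and other ligands taken up by endocytosis, Mrc1 and Marco had the largest differences between week 9 and week 6. Mrc1 encodes the mannose receptor, which binds glycoproteins and collagen fragments. Its log2 signal was 8.38 and 8.20 on the week 6 arrays, 7.14 and 7.43 at week 9, and 7.34 and 7.09 at week 15. Both week 6 arrays stood above the other 4, and the week 9 and week 15 arrays overlapped. The week 9 mean was 2.00-fold lower than that of week 6, with a standard error of 0.19 on the log2 scale (limma adjusted p = 0.0968), and the log2 change from week 6 to week 15 was -1.07 (adjusted p = 0.116). From week 9 to week 15 it was -0.07, with a 95% confidence interval from -0.52 to 0.37 that is not adjusted for the number of features.

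Marco encodes a scavenger receptor that binds bacteria and particles. It gave 6.42 and 6.30 at week 6, 5.46 and 5.21 at week 9, and 5.89 and 5.32 at week 15. The week 6 arrays were again the highest, and the second week 15 array fell within the week 9 range. The change was -1.03 ± 0.23 (SE) at week 9 (limma adjusted p = 0.132) and -0.75 ± 0.23 at week 15, each against week 6 (adjusted p = 0.239). Both week 9 signals lay close to the detection limit, with intensities of 136 and 129.

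Lyve1 encodes a hyaluronan receptor found on lymphatic vessels and on a set of resident macrophages along blood vessels. Its log2 signals were 6.49 and 7.08 at week 6, 5.76 and 6.17 at week 9, and 6.13 and 5.88 at week 15. Week 6 was the highest week without overlap, and its arrays differed by more than those of the other weeks. The change at week 9 was -0.82 ± 0.25 (SE, limma adjusted p = 0.212), and week 15 differed from week 9 by 0.04, with an interval from -0.56 to 0.64. Without the second week 6 array the change at week 9 was -0.53. Lymphatic endothelium also expresses Lyve1 and Mrc1. The 5 lymphatic markers with a probe had a mean log2 signal of 7.37 at week 6, 6.75 at week 9 and 6.42 at week 15. Of these, Ccl21a and Pdpn were detected on all 6 arrays, while Prox1, the defining transcription factor, and Flt4 were each detected on 1. The part of these vessels in the Lyve1 and Mrc1 values was not tested.

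Of the receptors that bind dying cells, Timd4 had the smallest p of all members at week 9. Timd4 encodes a receptor for phosphatidylserine, the lipid that dying cells expose. Its log2 signals were 7.98 and 8.17 at week 6, 7.13 and 7.08 at week 9, and 7.12 and 7.35 at week 15. Both week 6 arrays stood above the other 4, which overlapped. The change was -0.97 ± 0.17 (SE) at week 9 (1.96-fold lower, limma adjusted p = 0.0871) and -0.83 at week 15 (adjusted p = 0.149), each against week 6, and 0.13 between week 9 and week 15 (interval from -0.27 to 0.54).

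Mertk encodes a receptor tyrosine kinase that recognizes dying cells through the bridging proteins Gas6 and protein S. Its log2 signals were 7.08 and 7.01 at week 6, 6.49 and 6.15 at week 9, and 6.52 and 5.64 at week 15. The arrays of week 15 were far apart and enclosed both week 9 arrays, and all 4 lay below week 6. The change at week 9 was -0.72 ± 0.29 (SE, limma adjusted p = 0.298) and at week 15 -0.96 ± 0.29 (adjusted p = 0.241). Week 15 against week 9 gave -0.24 with all arrays, -0.68 without the first week 15 array and 0.20 without the second.

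Cx3cr1, the receptor for the chemokine fractalkine, was the member with the widest range of week means. It gave 7.86 and 8.04 at week 6, 7.08 and 7.47 at week 9, and 7.00 and 6.69 at week 15. No 2 weeks overlapped, though the lower week 9 array and the higher week 15 array differed little. The change was -0.67 ± 0.21 (SE) from week 6 to week 9 (limma adjusted p = 0.212), -0.43 from week 9 to week 15 (adjusted p = 0.258, interval from -0.92 to 0.06) and -1.10 from week 6 to week 15 (adjusted p = 0.122). The value between week 9 and week 15 was -0.23 without the second week 9 array and -0.27 without the second week 15 array.

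Adgre1 encodes F4/80, an adhesion receptor used as a general mark of mouse macrophages. Its brightest probe gave 6.79 and 7.26 at week 6, 6.26 and 6.12 at week 9, and 6.82 and 6.78 at week 15. Week 9 was the lowest week, and the week 15 arrays overlapped those of week 6. The change was -0.84 ± 0.20 (SE) at week 9 (limma adjusted p = 0.156) and 0.61 ± 0.20 from week 9 to week 15 (adjusted p = 0.144), and week 15 differed from week 6 by -0.22 (interval from -0.70 to 0.25). The second Adgre1 probe, detected on all 6 arrays, gave log2 differences of -0.46, 0.47 and 0.00 in the same 3 comparisons. The third lay above background on 1 array at week 6, none at week 9 and 1 at week 15, and no change is given for it. Against week 6, the brightest probe at week 15 gave -0.46 without the first week 6 array and 0.0130 without the second.

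Folr2 encodes folate receptor beta, a surface protein of resident macrophages. Its log2 signals were 5.77 and 6.20 at week 6, 6.28 and 5.88 at week 9, and 5.67 and 5.52 at week 15. Weeks 6 and 9 overlapped, and both week 15 arrays were the lowest of the 6. The change was 0.09 ± 0.22 (SE) at week 9, with an interval from -0.43 to 0.62, and -0.49 ± 0.22 from week 9 to week 15 (limma adjusted p = 0.238), which was -0.29 without the first week 9 array. Its week 9 value was -0.12 without the first week 6 array and -0.10 without the first week 9 array, so its direction was not settled.

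**Figure D2:**
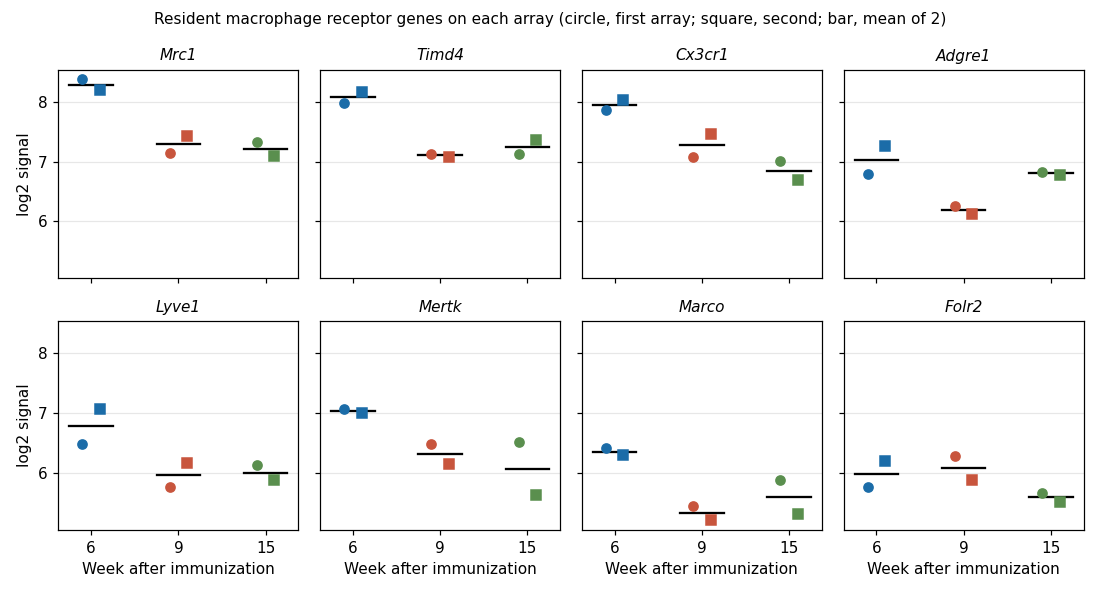
log2 signal of the brightest probe of each of the 8 tested genes on each array by week after immunization; circles are the first and squares the second array of a week, and bars the mean of 2. In Mrc1, Timd4, Cx3cr1, Lyve1, Mertk and Marco both week 6 arrays lie above the other 4, Adgre1 is lowest at week 9, and Folr2 is lowest at week 15.

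At week 15 all 8 genes had a lower mean than at week 6, with a median log2 change of -0.81 against -0.02 over all features. None passed the threshold, where 0.0492% of all features did. Of the 8, 6 had an unadjusted p under 0.05 and a lower mean, against 8.52% of all features, namely Mrc1, Timd4, Cx3cr1, Lyve1, Mertk and Marco. Without the first week 15 array, the one with the high skeletal muscle markers, Mrc1 (-1.20), Cx3cr1 (-1.26), Mertk (-1.40) and Marco (-1.04) passed, with limma adjusted p from 0.0282 to 0.0357. In that fit 1013 features passed in place of 5, and week 15 rests on 1 array. Without the second week 15 array, the dimmest of the 6, no member passed, and the change was -0.52 for Mertk and -0.47 for Marco.

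Between week 9 and week 15 none of the 8 passed, where 1.19% of all features did. Of the changes, 4 were positive and 4 negative, with a median of -0.02 against -0.08 over all features. Adgre1 alone had an unadjusted p under 0.05, with a higher mean, against 10.3% of all features. The comparisons of week 9 with week 6 and of week 15 with week 6 share the week 6 arrays, so their values do not support each other.

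**Figure D3:**
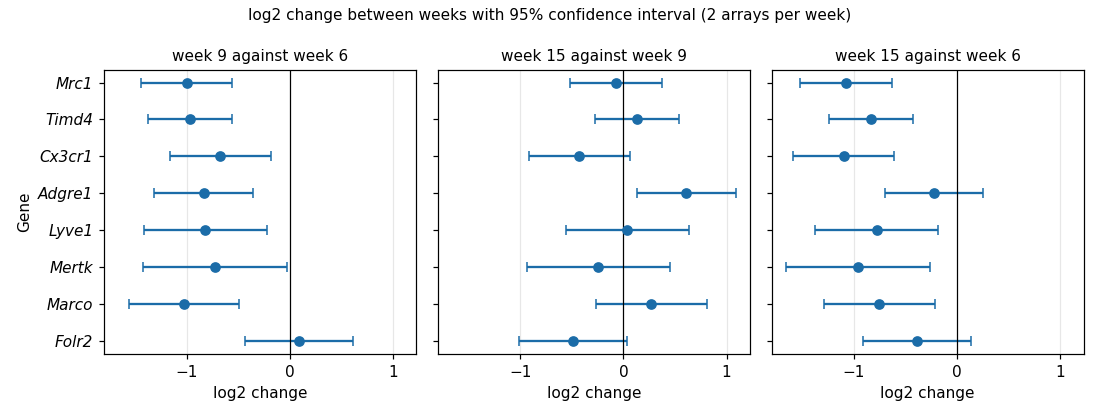
log2 change of the 8 tested genes in each comparison of 2 weeks, as points with the unadjusted 95% confidence interval of the limma fit. At week 9 the intervals of 7 genes lie below 0 and that of Folr2 spans 0; between week 9 and week 15 the interval of Adgre1 lies above 0 and the other 7 span it.

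Of 7 tested genes that serve macrophages in general, 6 had a lower mean at week 9 than at week 6, 2 of them with an unadjusted p under 0.05, and none passed the threshold. Lgals3 was the exception, with a log2 change of 0.11. The list held 12 genes, 9 of them on the array, and Csf1r, Cd68, Itgam, Mpeg1 and Fcgr1 were not tested. The mean log2 signal of the 7 (Cd14, Lyz2, Aif1, Fcgr3, Ms4a7, Lgals3 and Tyrobp) was 10.16 and 9.99 at week 6, 9.65 and 9.58 at week 9, and 9.76 and 9.39 at week 15, so both week 6 arrays were the highest. Set against this mean on the same array, Mrc1 was lower at week 9 than at week 6 by a log2 difference of -0.55, Timd4 of -0.51 and Marco of -0.57, while Cx3cr1 differed by -0.22 and Mertk by -0.27. Adgre1 and Lyve1 differed by -0.38 and -0.37. Folr2 differed by 0.55 in the other direction. At week 15 against week 6 the relative differences ran from -0.60 for Cx3cr1 to 0.27 for Adgre1. These differences describe the arrays and were not tested.

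The profiles of the 8 genes over the 6 arrays were mostly alike, with 27 of 28 pairwise correlations positive and a median r of 0.73. The lowest was -0.09 and the highest 0.92. All pairs share the same 6 arrays and the same difference between weeks, so the correlations are a description only. Of 775 other genes with an SD of at least 0.5, those most like the mean standardized profile were Cidea, a lipid droplet protein (r = 0.99), Prf1, which encodes perforin (0.99), Angptl7 (0.98), Cdo1, an enzyme of cysteine breakdown (0.98), and Me1, malic enzyme (0.98). Those most like Cx3cr1 were Vtn, which encodes vitronectin (0.99), Apoe, apolipoprotein E (0.98), Igfbp5 (0.97), Cyp2e1 (0.97) and Prg2, a granule protein of eosinophils (0.97).

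The sequence before the transcription start is shown for 4 of the 6 genes whose week 6 arrays lay above the other 4 arrays. The share of all features with that order was not counted. Arrays of week 9 and week 6 did not overlap, in either direction, for 58.2% of all features. For week 15 and week 6 that share was 44.0%. The sequences are shown to let genes with a like course over the weeks be compared. They come from the RefSeq promoter table of the mouse build GRCm38.p6, which holds 8 of the 10 genes. Lyve1 is not among these, and Mertk is, but its sequence is not printed. Each line gives 250 bases upstream of the start, 5′ to 3′ along the gene. Capitals mark GAGGAA, the core bound by the myeloid factor PU.1, or TGCTGA, a half-site of Maf factors, read on either strand. The searched motifs do not overlap in these windows.
Mrc1, chr2:14229164-14229413, plus strand: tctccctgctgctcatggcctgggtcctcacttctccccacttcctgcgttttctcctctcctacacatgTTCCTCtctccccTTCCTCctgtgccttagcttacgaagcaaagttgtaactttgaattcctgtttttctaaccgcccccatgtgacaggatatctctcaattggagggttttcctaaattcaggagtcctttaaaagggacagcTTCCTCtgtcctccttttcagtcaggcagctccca
Timd4, chr11:46810549-46810798, plus strand: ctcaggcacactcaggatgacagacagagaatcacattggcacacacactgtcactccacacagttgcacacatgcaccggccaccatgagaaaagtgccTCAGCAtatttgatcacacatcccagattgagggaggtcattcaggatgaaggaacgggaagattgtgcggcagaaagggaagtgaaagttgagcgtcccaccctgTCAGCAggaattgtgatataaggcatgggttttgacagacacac
Cx3cr1, chr9:120068297-120068546, minus strand: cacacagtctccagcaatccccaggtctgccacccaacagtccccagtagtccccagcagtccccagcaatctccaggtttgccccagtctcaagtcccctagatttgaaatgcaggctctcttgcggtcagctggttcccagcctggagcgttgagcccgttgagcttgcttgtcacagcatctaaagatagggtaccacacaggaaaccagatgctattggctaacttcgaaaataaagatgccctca
Marco, chr1:120505025-120505274, minus strand: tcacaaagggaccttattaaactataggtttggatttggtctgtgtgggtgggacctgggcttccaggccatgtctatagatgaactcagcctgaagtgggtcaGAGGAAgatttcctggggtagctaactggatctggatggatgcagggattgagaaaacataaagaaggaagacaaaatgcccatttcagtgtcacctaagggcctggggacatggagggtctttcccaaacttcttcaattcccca

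Mrc1 held GAGGAA at 3 places, the nearest beginning 35 bases upstream of the start, and Marco held it once, 146 bases upstream. Timd4 held TGCTGA at 150 and 44 bases upstream. Cx3cr1 held neither. Of the 8 genes in the table, 3 held GAGGAA (Mrc1, Marco and Vsig4) and 2 held TGCTGA (Timd4 and Folr2), with Folr2 represented by 2 starts. Over all 32851 windows of the same length in the table, 23.3% held GAGGAA and 16.1% held TGCTGA. A match of 6 letters is a description of the sequence and not a site, and the lack of one says only that these letters are not in the window.

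The other genes of macrophage function came from 8 lists, and no tested member of any list passed the threshold in any of the 3 comparisons. Counts below are of members with an unadjusted p under 0.05 and a lower mean at week 9 than at week 6, to be read against 8.59% of all features. Of the lineage genes 2 of 7 met this, of the lineage transcription factors 3 of 8, of the genes for clearing dying cells 6 of 13 and of the other scavenger and lectin receptors 5 of 9. The growth factors and ligands gave 1 of 6, heme and iron genes 2 of 8, monocyte and inflammatory genes 1 of 7 and genes of alternative activation 3 of 5. The median log2 changes were -0.53, -0.38, -0.69 and -0.63 for the first 4 lists and -0.14, -0.12, -0.20 and -0.73 for the last 4.

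Lists also held members with a higher mean at week 9. Elmo1, an engulfment adaptor in the clearance list, had a log2 change of 0.62 (limma adjusted p = 0.269), and Pdcd1lg2, a checkpoint ligand in the alternative activation list, one of 0.46 (adjusted p = 0.300). Both were chosen after their values were seen, as the members of those lists with an unadjusted p under 0.05 and a higher mean. Pros1, which encodes protein S, a ligand of Mertk, had a log2 change of -0.65 at week 9 and -0.86 at week 15 against week 6 (limma adjusted p = 0.192 and 0.153). Stab1, a scavenger receptor that also binds phosphatidylserine, lay at background on both week 9 arrays (limma adjusted p = 0.181 against week 6). Its week 6 mean was 1.72-fold above the lowest detected signal of those arrays, a ratio given without sampling error. Mfge8, which bridges dying cells to phagocytes, had log2 differences from week 6 of -0.82 at week 9 and -1.39 at week 15. Trem2, a lipid-sensing receptor, had mean log2 signals of 7.09, 6.09 and 5.84 over the weeks, and Retnla, a secreted product of alternatively activated cells, had 6.80, 6.03 and 5.44. Among transcription factors, Zeb2 had a log2 change of -0.81 at week 9 (adjusted p = 0.113) and Gata6, which marks peritoneal macrophages, of -0.98, with 1 week 9 array above background. Cebpb had one of 0.78 from week 9 to week 15 (adjusted p = 0.1000). Hp, which encodes the haptoglobin bound by Cd163, had mean log2 signals of 9.15, 7.87 and 7.79, and the iron exporter Slc40a1 had 9.67, 8.86 and 9.10. Trf, which encodes transferrin, had a log2 change of -0.91 from week 6 to week 15.

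The lineage genes Lyz2 (lysozyme), Fcgr3 (an Fc receptor) and Ms4a7 had log2 changes of -0.53, -0.64 and -0.74 at week 9. Scara3, a scavenger receptor family member, had one of -1.11 at week 9 and -1.73 at week 15, with week 15 arrays at 7.69 and 6.19. Csf1, the growth factor that macrophages depend on, had mean log2 signals of 5.65, 5.38 and 5.21 over the weeks, and Cd86, a costimulatory ligand, had 10.80, 10.44 and 10.23. Plac8 had 11.82, 11.96 and 12.39. Il10, which encodes an anti-inflammatory cytokine, was above background on the week 15 arrays only (limma adjusted p = 0.198 against week 9). Its week 15 mean was 1.10-fold above the lowest detected signal of the week 9 arrays, a ratio given without sampling error.

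Some genes had their lowest mean at week 9 and a higher one at week 15, as Adgre1 had. Clec7a, the receptor for fungal glucans, had mean log2 signals of 8.85, 7.82 and 8.96 and a log2 change of 1.14 from week 9 to week 15 (limma adjusted p = 0.0661). Socs2, a cytokine signalling inhibitor, had 10.11, 9.46 and 10.33 (adjusted p = 0.062 for the same comparison). Il1b, an inflammatory cytokine, had 9.20, 8.62 and 9.52 (adjusted p = 0.0762), and the monocyte chemoattractant Ccl7 had 6.52, 5.33 and 5.91. The lectin Cd209b had 10.09, 9.45 and 9.79.

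Several marker lists of other cells were also at their highest at week 6. The mean log2 signal of 6 blood endothelial markers was 7.29 at week 6, 6.60 at week 9 and 6.52 at week 15. Of these, Plvap and Ramp2 were lower on every later array. Pecam1 gave 9.89 and 9.35 at week 6, 9.63 and 9.83 at week 9, and 9.44 and 10.42 at week 15. Kdr gave 5.49 and 5.18 at week 6 and 5.55 and 5.53 at week 9. Cdh5 was detected on 1 array and Tie1 on 2. The mean of 6 fibroblast markers was 7.53, 6.82 and 6.70. The 6 adipocyte markers had 6.30, 5.06 and 5.23, with Plin1 and Fabp4 not above background on any array. Neutrophil markers had 8.46, 7.94 and 7.33. The 6 T and NK cell markers had 10.39, 10.76 and 10.60, the 5 B and plasma cell markers 10.68, 10.53 and 10.75, the dendritic cell markers 8.24, 8.01 and 8.18, and the erythroid markers 7.40, 6.70 and 7.40. Of the 6 osteoclast markers, Calcr, Ocstamp and Dcstamp were not above background on any array. The part of these shifts in the receptor values was not tested.

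**Figure D4:**
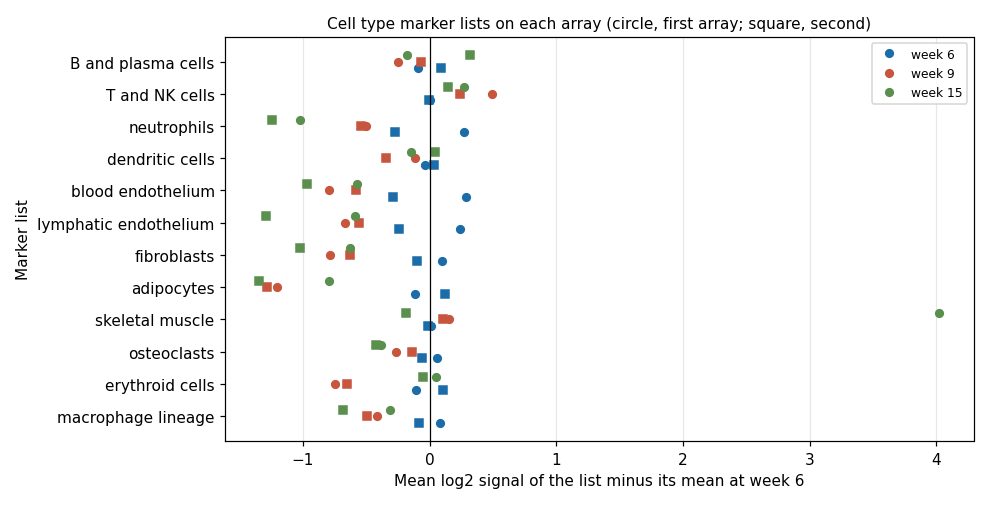
Mean log2 signal of each cell type marker list on each array, less the mean of its 2 week 6 arrays, and the same for the 7 macrophage lineage genes; circles are the first and squares the second array of a week. The adipocyte, fibroblast, neutrophil, osteoclast and both endothelial lists and the macrophage lineage genes lie below 0 on all 4 later arrays. The skeletal muscle list stands apart on the first week 15 array.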

How the data were processed

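The deposited table holds 1 linear intensity per probe and array, per the file headers, with no detection p-value. It was deposited under the name non-normalized, and the sources used here give no more detail on that. Processed log2 values by the authors were also deposited, with a median of 6.73 on every array and no stated scaling, and each column correlated best with the intensities of its own array (r from 0.9958 to 0.9992). They served as an alternative. Another 2 columns of per-sample values match no sample here and were not used. Of 26821 rows, 25697 carry a probe ID. The other 1124 were taken as control rows, of which 13 bright ones (over 5 median absolute deviations above the median of log2 intensity) were left out and 1111 served as background.

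Background was removed by the normal-exponential model (offset 16), and values were quantile-normalized and log2-transformed (neqc, limma 3.58.1, R 4.3.3). Probes with a detection p under 0.05 on at least 2 arrays were kept (13633), and the brightest stood for its gene, which gave 10167 features. Names came from the platform's probe table, which names 1 gene for 23978 probes and none for 1719. All 6 arrays entered 1 limma fit (lmFit, eBayes) with a mean per week, 3 residual and 4.02 prior degrees of freedom, two-sided tests and Benjamini-Hochberg adjustment over all features. The number of arrays limits the precision. In 5 simulated sets of arrays over 10167 features, 200 genes were raised at week 9 against week 6. Of genes raised by 1 on the log2 scale 4.2% were called, and of those raised by 2, 85%. The share called depends on how many genes change, which is not known for the data. There 16.0% of features had a limma unadjusted p under 0.05 in this comparison. Alternatives were another background correction, offset, scaling, filter, probe rule, set of arrays, replicate block and array weights, and leaving out each array. The replicate numbers are not stated to mark pairs. Named are all members, list genes past the threshold, and the 3 of each list with the smallest p. The members, lists and motifs were chosen with earlier results of these data known.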

Additional observations from a re-analysis of the deposited data

How the results depend on the processing

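No member passed the threshold between week 9 and week 15 under any of the 17 alternatives. Between week 6 and week 9 at least 1 member passed under 6 of 17: Timd4 with an offset of 50 (limma adjusted p = 0.0467), Marco with scaling to the 75th percentile (0.0494), 2 members (Timd4 and Marco) with only the 4 arrays compared, which equals leaving out either week 15 array, and 4 (Mrc1, Timd4, Adgre1 and Marco) with array quality weights, which give each week 15 array a weight of 0.436 against 1.49 to 1.54. Over the arrays left out this count ran from 0 to 2, and the count with an unadjusted p under 0.05 from 4 to 7. Between week 6 and week 15 it ran from 0 to 4. The cause of these differences was not tested.

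Folr2 at week 9 was -0.0452 with scaling to the 75th percentile, and -0.12 to 0.31 over the arrays left out. Over the arrays left out, week 15 against week 9 ran from -0.217 to 0.0692 for Mrc1, -0.17 to 0.24 for Lyve1, -0.0137 to 0.555 for Marco and -0.68 to 0.20 for Mertk, and Adgre1 at week 15 against week 6 from -0.462 to 0.0130. The other signs held. 

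Features called at week 9 against week 6 numbered 36 as reported, 69 with no background correction, 83 with an offset of 50 or scaling to the 75th percentile, 71 with every probe as its own feature, 171 with only the 4 arrays compared, 635 with array weights, 8 with the replicate block, and 0 to 171 over the arrays left out (at 0, 843 to 879 had an unadjusted p under 0.05). For week 15 against week 9 they numbered 121, and 354, 265, 327, 3 and 31 under the same settings without the scaling, 329 with the authors' values, 34 with the block and 0 to 1999 over the arrays left out. For week 15 against week 6 they numbered 5, and 29 with no background correction, 42 with an offset of 50, 10 with scaling to the 75th percentile, 15 with the authors' values, 8 with the mean of a gene's probes, and 3 to 1013 over the arrays left out. In the replicate block fit no member was called in any comparison. Same-numbered arrays showed correlations of their deviations from the week means of -0.08 to 0.15. These weak correlations showed no clear effect of the replicate number. They cannot tell whether the numbers pair the arrays, since paired arrays need not share a shift in signal.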
